A study of Rattus norvegicus with 47 samples.

Results

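Immediate early genes are genes whose transcripts rise within minutes of a stimulus, before any new protein is made. Here 9 of them were followed in rat kidney, chosen by symbol from the count table: the AP-1 genes Fos, Fosb, Jun and Junb, the transcription factor genes Egr1 and Nr4a1, Ier2, and the feedback genes Dusp1 and Zfp36. They are 9 of 22525 genes in the table, and 9 of 9 passed the filter on low counts that left 15868 genes for testing.

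Kidney RNA was sequenced from rats 12 months after pellets of a metal had been implanted, with no other treatment in the labels. Reference animals carried tantalum (Ta), which is inert, and the others carried depleted uranium (DU), lead (Pb), aluminium (Al), cobalt (Co) or tungsten (W). Of the 47 libraries 7 came from Pb animals and 8 from animals of each of the remaining metals, and every library had its own animal number. The labels give no strain, sex or age, and no time of day at tissue collection, ischaemic interval or RNA integrity value.

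As background, these genes are held ready for transcription and are switched on by mitogen-activated protein kinases through serum response factor and its partners, and by cyclic AMP and calcium through CREB. Their transcripts are short-lived, so a tissue level reflects the last minutes to hours before the tissue was preserved. In kidney they are known to respond to ischaemia, toxins and growth factors, and also to anaesthesia, surgical handling and the time taken to remove the organ.

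The stretch before the transcription start was examined for the DNA elements that these pathways act on. RefSeq promoters of the rat build GRCr8, which is not the build the reads were aligned to, were found for 7 of the 9 members, all but Fos and Jun, and the 250 bases before the start were searched on both strands. The cyclic AMP response element TGACGTCA, bound by CREB and its relatives, was present in 1.59% of 33469 promoters and in 2 of 7 members, Ier2 and Dusp1. Its core TGACG was present in 18.2% of promoters and in 5 of 7 members, with 1 match in Junb, 2 in Egr1, 2 in Ier2, 3 in Dusp1 and 4 in Nr4a1, where a full element counts as 2 overlapping cores. The CArG box, to which serum response factor binds, was present in 1.5% of promoters and in 2 of 7 members, with 2 matches in Egr1 and 1 in Zfp36. An AP-1 site (TGACTCA or TGAGTCA) was present in 4.05% of promoters and in 0 of 7 members. Of the general elements, the GC box GGGCGG was in 30.5% of promoters and 3 of 7 members, and the sequence TATAAA in 12.9% and 2 of 7, Fosb and Junb.

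Promoters of 4 members are shown because Junb and Ier2, and Dusp1 with them, are compared below, and because Nr4a1 differed most between metals. Each is given 5′ to 3′ on the strand of its gene, ends at the base before the start, and has matches to TGACG or TGACGTCA on either strand in capitals. The positions are chr19:40080876-40081125 for Junb, chr19:40399123-40399372 for Ier2, chr10:17184603-17184852 for Dusp1 and chr7:134259888-134260137 for Nr4a1, all on the plus strand of GRCr8.
Junb: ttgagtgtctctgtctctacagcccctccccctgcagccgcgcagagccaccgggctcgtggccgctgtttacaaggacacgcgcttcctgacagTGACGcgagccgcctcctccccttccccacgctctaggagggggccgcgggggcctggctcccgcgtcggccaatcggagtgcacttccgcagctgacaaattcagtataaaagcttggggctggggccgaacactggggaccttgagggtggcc
Ier2: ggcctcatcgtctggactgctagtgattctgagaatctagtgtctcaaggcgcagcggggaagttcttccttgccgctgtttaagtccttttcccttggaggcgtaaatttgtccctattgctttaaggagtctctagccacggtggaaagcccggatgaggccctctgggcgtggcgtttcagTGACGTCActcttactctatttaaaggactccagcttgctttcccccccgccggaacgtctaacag
Dusp1: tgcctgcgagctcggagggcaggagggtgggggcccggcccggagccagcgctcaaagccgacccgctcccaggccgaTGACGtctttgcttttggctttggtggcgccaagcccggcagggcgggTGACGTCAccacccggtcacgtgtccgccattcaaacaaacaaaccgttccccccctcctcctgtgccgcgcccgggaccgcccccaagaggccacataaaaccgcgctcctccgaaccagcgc
Nr4a1: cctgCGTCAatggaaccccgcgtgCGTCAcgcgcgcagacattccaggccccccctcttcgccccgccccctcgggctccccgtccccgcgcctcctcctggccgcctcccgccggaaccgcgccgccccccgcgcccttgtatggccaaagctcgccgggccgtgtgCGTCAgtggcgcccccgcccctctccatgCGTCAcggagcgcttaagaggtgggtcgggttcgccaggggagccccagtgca
The full element of Ier2 began 66 bases before the start and that of Dusp1 lay further upstream. The 4 cores of Nr4a1 all read CGTCA on this strand and began 246, 226, 82 and 53 bases before the start.

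Total gene counts were 21604755 to 35775818 per library (median 26363810). Kidney markers were present in 47 of 47 libraries (Slc34a1 of the proximal tubule, Umod of the thick ascending limb, Nphs1 of podocytes and Aqp2 of the collecting duct). DU replicate 6 stood apart: its 14 proximal tubule markers summed to 1890 CPM (the count scaled to the TMM-adjusted library total), where the medians of the 6 groups were 12600 to 15800, and its 10 neutrophil markers to 339 CPM, where group medians were 4.56 to 9.73. Mean levels of 12 endothelial markers differed between groups, from 3.58 ± 0.329 log2 CPM in Pb (SD, n = 7) to 5.42 ± 0.269 in DU (n = 8), with 5.31 ± 0.179 in Ta. The balance between ribosomal and very large protein genes, a difference of mean log2 CPM, was 1.72 ± 0.273 in Ta (n = 8) and highest in Pb (3.48 ± 0.455, n = 7). In whole tissue, fewer cells of a type and less RNA per cell cannot be told apart. Each metal held a run of successive animal numbers, so an order of handling by number and the metal cannot be told apart either.

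Over the 5 metals, few members differed from Ta. The test was edgeR's quasi-likelihood F test with Benjamini-Hochberg adjustment over all genes and a threshold of 0.05. Against Ta, 3 of 9 members were called in Pb (53.7% of all tested genes were), 2 in Al (25.2%), 1 in Co (25.8%), 0 in W (1.78%) and 0 in DU (15.3%). An unadjusted p under 0.05 was reached by 2 members in W, Fosb and Egr1, and by 2 in DU, Junb and Nr4a1. DESeq2 called 0 in both, and limma voom called 0 in W and 1 in DU, Junb. The median log2 fold change of the members was -0.14 in Pb, -0.31 in Al, 0.04 in Co, -0.19 in W and 0.19 in DU, beside -0.07, -0.04, -0.07, -0.03 and -0.01 over all tested genes. No share of members called exceeded that of all genes, but shares of 9 members are coarse. In Al 2 of 9 lies near the 25.2% of all genes, and in W 0 of 9 tells little beside 1.78%. The members did not move as a block: in Pb, Junb was higher while Egr1 and Nr4a1 were lower. All 5 comparisons share the same 8 Ta libraries. Between pairs of the other metals, 10 comparisons added after the values were seen, 2 members were called in DU against Pb (49.6% of all genes were), 2 in DU against W (20.7%), 2 in DU against Co (25.2%), 2 in Pb against W (39%), 1 in DU against Al (12.7%) and 1 in Pb against Co (25.8%). In the remaining 4 pairs 0 were called (0% of all genes in Co against W and in Al against Co, 2.68% in Al against W and 19.1% in Pb against Al), with 0 to 3 members at an unadjusted p under 0.05.

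**Figure D1:**
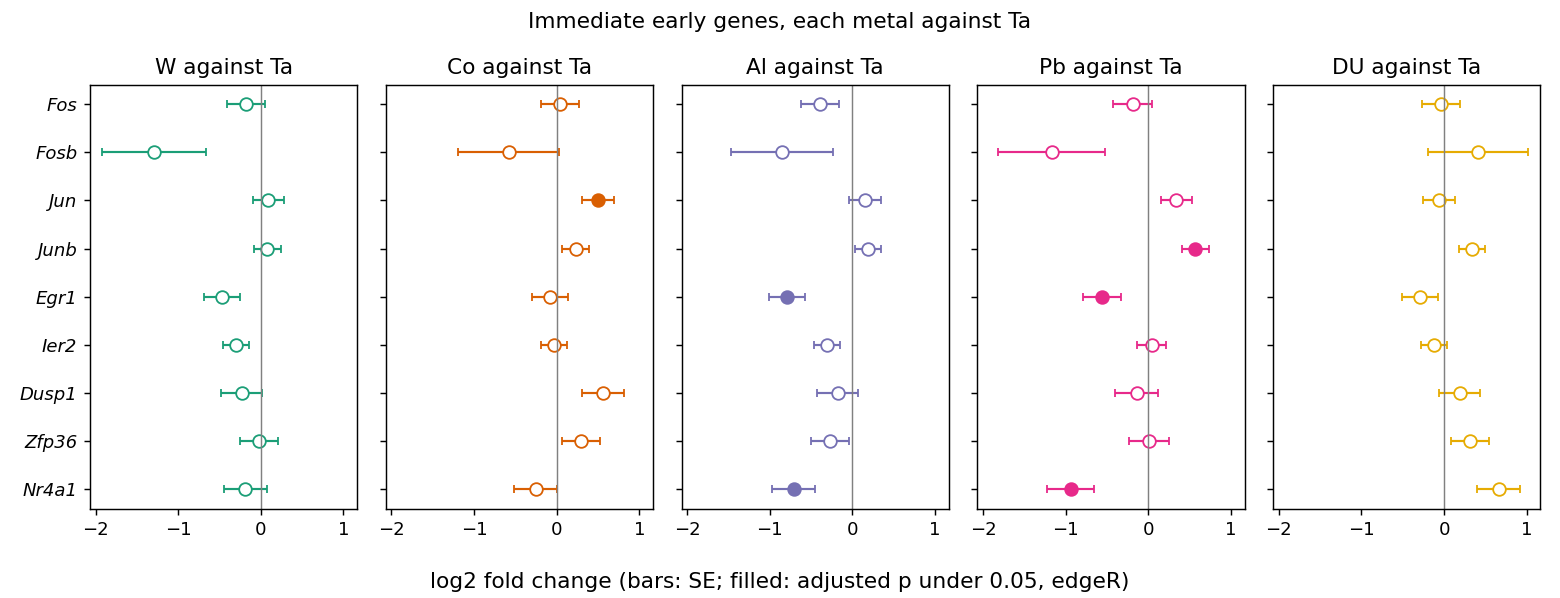
Log2 fold change of each of the 9 members (rows) in each metal against Ta (panels), on the horizontal axis, with bars for the SE and filled points where edgeR's adjusted p was under 0.05. The 6 filled points are Jun in Co, Egr1 and Nr4a1 in Al, and Junb, Egr1 and Nr4a1 in Pb; Fosb has the widest bars.

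Among the 6 metals together, 4 of 9 members differed (58.4% of all genes did): Nr4a1 (adjusted p = 2.82e-05), Egr1 (0.0158), Junb (0.03) and Dusp1 (0.0371) by edgeR's quasi-likelihood test. Without Ta, among the other 5 metals, 2 of 9 differed (53.2% of all genes did), Nr4a1 (adjusted p = 2.58e-05, edgeR) and Dusp1 (0.024). Both Dusp1 results were lost without Co replicate 6, 7 or 8, with an adjusted p of 0.233 and 0.162 without replicate 7. The result of Junb among 6 metals was lost without Pb replicate 3, 6 or 7 and was 0.0948 without replicate 3. Among 6 metals Junb was also lost with the marker covariates, the small-protein covariate or 3 surrogate variables, and Dusp1 in limma voom, with the replicate block, with lower or higher replicate number as a factor and with the clock covariate.

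**Figure D2:**
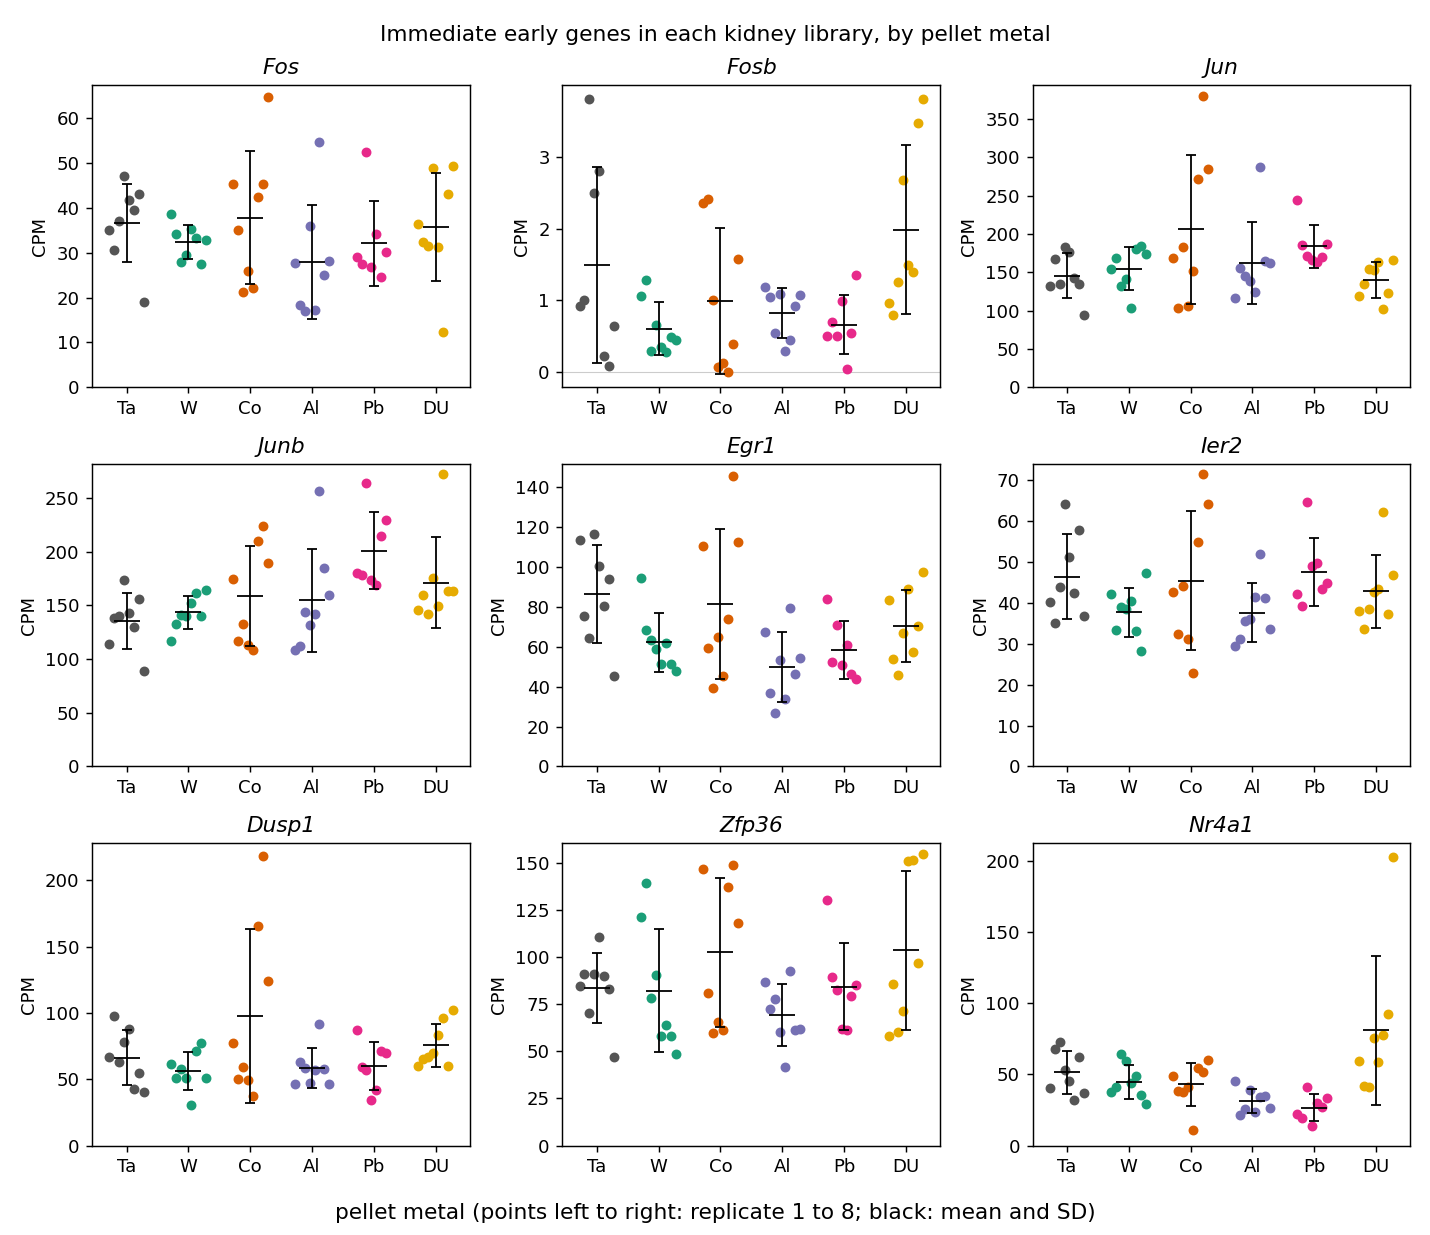
CPM (vertical axis) of each member in each of the 47 libraries, by pellet metal, with replicates from left to right and the mean and SD in black. Co replicates 6 to 8 are high in Jun and Dusp1, DU replicate 8 is high in Nr4a1 (202.6 CPM), and the Pb libraries lie at or above 168.6 CPM in Junb, where the Ta median is 139.3 CPM.

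Nr4a1, an orphan nuclear receptor of the early response, differed most between metals. It had 32.18, 49.24 and 72.57 CPM in Ta (lowest, median and highest of 8), 13.45, 26.98 and 41.28 CPM in Pb (of 7), and 21.35, 30.22 and 45.44 CPM in Al (of 8). In W it had 29.28, 42.74 and 64.05 CPM, in Co 10.99, 45.16 and 60.44 CPM, and in DU 40.95, 67.32 and 202.6 CPM. All 7 Pb and all 8 Al libraries lay under the Ta median, and 5 of the Pb and 4 of the Al libraries under the lowest Ta library, so the groups overlapped in part. DU lay above, with 4 of 8 libraries over the highest Ta library, and DU replicate 8 was the highest of all 47.

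Against Ta, Nr4a1 fell in Pb, from 51.34 ± 14.9 CPM (SD, n = 8) to 26.7 ± 9.29 CPM (n = 7), a log2 fold change of -0.94 ± 0.28 (SE, edgeR adjusted p = 0.0037). This call held without any 1 of the 47 libraries, the highest adjusted p being 0.0132. Nr4a1 also fell in Al, to 31.33 ± 8.36 CPM (n = 8), by 0.71 on the log2 scale (SE 0.26, edgeR adjusted p = 0.042), a call lost without any 1 of 13 libraries (Ta replicates 2, 3, 4, 5 and 7, Al replicates 2, 3, 5, 6, 7 and 8, and DU replicates 4 and 5), with 0.107 without Ta replicate 3. In DU the value was 81.02 ± 52.2 CPM (n = 8) and the log2 fold change 0.66 ± 0.26 (edgeR adjusted p = 0.0824), or 0.32 without DU replicate 8 (0.408); it passed without Co replicate 5, DU replicate 2 or DU replicate 3.

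The order of the group means was DU, Ta, W, Co, Al and Pb, and no neighbours in it passed the test (edgeR adjusted p from 0.0824 to 0.962). The ends did: DU exceeded Pb 3.03-fold (SE 0.28 on the log2 scale, edgeR adjusted p = 1.27e-05) and Al by a log2 fold change of 1.37 ± 0.27 (0.00153), with 8 of 8 DU libraries over the median of each. DU against Co (0.91, adjusted p = 0.00993 by edgeR) and against W (0.85, 0.0186) passed, but not without DU replicate 8 (0.57 and 0.0755, 0.51 and 0.128). Pb against W was -0.75 ± 0.28 (edgeR adjusted p = 0.0269), and 4 single libraries could end that call (W replicates 3 and 4, Pb replicates 2 and 4). With the marker covariates none of these 5 differences passed: DU against Pb was 1.17 (edgeR adjusted p = 0.0511), against Al 1.12 (0.0901), against Co 0.65 (0.478) and against W 0.70 (0.271), and Pb against W was -0.48 (0.281). With 3 surrogate variables DU against Pb and Al passed (0.00198 and 0.0125), and DU against Co (0.451) and W (0.189) and Pb against W (0.1) did not. Pb against W was also lost with the small-protein covariate (-0.58, edgeR adjusted p = 0.54), and DU against W in limma voom (0.55, 0.106).

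Endothelial markers were also lower in Pb and Al. Of the 12 markers, 11 were lower in Pb and 8 in Al (29.2% and 12.4% of all tested genes were lower). Their summed level reached at most 229 CPM in Pb (median 191), and was 150 to 516 CPM in Al and 479 to 675 CPM in Ta. None of the 12 was at 0 in any library. In DU the sum was 451 to 805 CPM, and 1 of 12 was higher (7.89% of all tested genes were). In Co 4 of 12 were lower (12.2% of all genes), with a sum of 130 to 659 CPM. In W 0 were lower (0.366%), with a sum of 179 to 657 CPM. Their mean level was 4.26 log2 CPM in Co, 4.34 in Al and 4.55 in W. Nr4a1 was not called in Co (-0.25, edgeR adjusted p = 0.489) or in W (-0.19, 0.698). Markers of other cell types were lower in the same metals: 11 of 11 podocyte markers in Pb (median log2 fold change -2.40) and 8 of 11 in Al, and 10 of 10 pericyte and smooth muscle markers in Pb and 8 of 10 in Al. In Co 4 of 11 podocyte and 9 of 10 pericyte and smooth muscle markers were lower, and in W 0 and 2. Of 14 proximal tubule markers 8 were lower and 2 higher in Pb. Summed levels did not overlap between Pb and Ta for podocytes (60.2 to 115 and 244 to 481 CPM) or for pericytes and smooth muscle (95.1 to 145 and 286 to 477 CPM). Proximal tubule sums did overlap, at 12500 to 16100 CPM in Pb (median 14900) and 9670 to 15400 CPM in Ta (median 13800). The part of these markers in the result was not tested. With mean levels of endothelial and of macrophage markers as covariates, the log2 fold change of Nr4a1 was -0.53 in Pb (edgeR adjusted p = 0.288) and -0.47 in Al (0.359). With the balance of small and very large proteins as a covariate it was -0.73 (0.377) in Pb and -0.59 (0.398) in Al, and with 3 surrogate variables -0.73 (0.0676) and -0.59 (0.14). Among the 6 metals the adjusted p of Nr4a1 was 0.0507 with the marker covariates. These measures differ with the metal, so their parts and that of the metal cannot be told apart. Calls over all genes fell too, from 8517 in Pb to 4119 with the marker covariates and 681 with the small-protein covariate. In Al they fell from 3996 to 1317 and 293.

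Egr1, a zinc finger transcription factor induced through serum response factor, was lower in Al and Pb. It had 45.27, 86.78 and 116.4 CPM in Ta (lowest, median and highest of 8), 26.87, 49.74 and 79.26 CPM in Al (of 8) and 43.67, 52.37 and 83.67 CPM in Pb (of 7). Medians elsewhere were 60.32 CPM in W, 69.35 CPM in Co and 68.57 CPM in DU. All 8 Al libraries and all 7 Pb libraries lay under the Ta median, but only 3 and 1 of them under the lowest Ta library, replicate 8, which was also the lowest of all libraries in Jun and Junb.

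Egr1 fell from 86.08 ± 24.5 CPM in Ta (SD, n = 8) to 49.68 ± 17.6 CPM in Al (n = 8), a log2 fold change of -0.79 ± 0.22 (SE, edgeR adjusted p = 0.00738). No single library ended this call (highest adjusted p 0.0244, without Ta replicate 1), and with the marker covariates it was -0.93 (0.00864). The small-protein covariate gave -0.97 and an adjusted p of 0.0711. In Pb (58.29 ± 14.5 CPM, n = 7) Egr1 fell by 0.56 on the log2 scale (SE 0.23, edgeR adjusted p = 0.0361). That call was lost without any 1 of 8 libraries (Ta replicates 1, 4, 5 and 7, and Pb replicates 2, 4, 6 and 7), with 0.0918 without Ta replicate 4, and without Ta replicates 4 and 6 (0.105). The Pb value was -0.89 with the small-protein covariate (edgeR adjusted p = 0.189), -0.53 with the clock covariate (0.0501), -0.63 with 3 surrogate variables (0.059) and -0.77 with the marker covariates (0.0429). In the order Ta, Co, DU, W, Pb, Al, neighbours did not differ beyond their spread (edgeR adjusted p from 0.512 to 0.805).

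Junb, an AP-1 subunit that pairs with Fos proteins and often restrains Jun, rose in Pb. It had 89.05, 139.3 and 173.7 CPM in Ta (lowest, median and highest of 8) and 168.6, 180.2 and 264.2 CPM in Pb (of 7). In DU it had 142.2, 161.3 and 272.5 CPM, and medians were 140.7 CPM in W, 153.7 CPM in Co; Al ranged from 108.7 to 256.7 CPM. Among the Pb libraries 5 of 7 lay over every Ta library, and 7 of 7 over every W library.

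From 135.5 ± 25.7 CPM in Ta (SD, n = 8) to 201.1 ± 35.9 CPM in Pb (n = 7), the log2 fold change of Junb was 0.57 ± 0.16 (SE, edgeR adjusted p = 0.00278). The call held without any single library (highest 0.0119, without Pb replicate 3). Pb exceeded W by 0.49 ± 0.16 (edgeR adjusted p = 0.0147), or 0.40 and 0.054 without Pb replicate 3. In DU, 8 of 8 libraries lay over the Ta median, with a log2 fold change of 0.34 ± 0.16 (edgeR adjusted p = 0.142). The small-protein balance was highest in Pb as well, at 3.08 to 4.37 against 1.28 to 2.06 in Ta, with no overlap. With it as a covariate the value for Junb in Pb turned to -0.29 (edgeR adjusted p = 0.499), with the marker covariates it was 0.15 (0.602) and with 3 surrogate variables 0.18 (0.327). Since the balance and the metal coincide, their parts cannot be told apart. The order of means was Pb, DU, Co, Al, W and Ta, with neighbours from 0.244 to 0.985 in adjusted p by edgeR.

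Jun, the AP-1 subunit phosphorylated by the JNK kinases, rose in Co through part of the animals. It had 94.13, 139.2 and 183.2 CPM in Ta (lowest, median and highest of 8) and 103.9, 176 and 380.4 CPM in Co (of 8). Co replicates 6, 7 and 8 had 272.1, 380.4 and 284.5 CPM, all above every Ta library, and the other 5 Co libraries lay within the Ta range. The mean was 206.3 ± 97.3 CPM in Co and 145.8 ± 28.9 CPM in Ta (SD, n = 8 each), a log2 fold change of 0.50 ± 0.19 (SE, edgeR adjusted p = 0.0449). Removal of any 1 of 8 libraries ended the call (Ta replicates 1, 3, 6, 7 and 8, and Co replicates 6, 7 and 8), with 0.31 and an adjusted p of 0.206 without Co replicate 7. The value was 0.03 with the small-protein covariate (edgeR adjusted p = 0.954), 0.08 with the marker covariates (0.816), 0.17 with 3 surrogate variables (0.719) and 0.29 in limma voom (0.205). DU was lower than Co by 0.56 on the log2 scale (SE 0.19, edgeR adjusted p = 0.0245), and this too was lost without Co replicate 6, 7 or 8, or DU replicate 6. In limma voom it was -0.27 (adjusted p = 0.207), with the marker covariates -0.28 and with 3 surrogate variables -0.37 (0.591 each by edgeR), and without DU replicates 5 and 6 -0.54 (0.0686). In Pb, 7 of 7 libraries lay over the Ta median (0.34 ± 0.19, edgeR adjusted p = 0.144); limma voom called it (0.38, adjusted p = 0.023), as did edgeR on the Pb and Ta libraries alone (0.36, 0.0175). The order of means was Co, Pb, Al, W, Ta and DU, with neighbours from 0.569 to 0.915 in adjusted p by edgeR.

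Dusp1, the phosphatase that switches off mitogen-activated protein kinases, was high in the same Co libraries. It had 165.4, 218.6 and 124.4 CPM in Co replicates 6, 7 and 8, the 3 highest values of all 47, and 37.57 to 77.75 CPM in the other 5. Ta ranged from 40.23 to 97.57 CPM (median 64.72) and the medians of W, Al, Pb and DU were 54.72, 57.61, 59.52 and 68.41 CPM. The mean of 97.86 ± 65.4 CPM in Co against 66.39 ± 20.6 CPM in Ta (SD, n = 8 each) gave a log2 fold change of 0.56 ± 0.25 (SE, edgeR adjusted p = 0.0935), or 0.28 (0.409) without Co replicate 7; it passed without Ta replicate 2 or Co replicate 2, 4 or 5. Pb was lower than Co by 0.70 on the log2 scale (SE 0.26, edgeR adjusted p = 0.0431), a call lost without Co replicate 6, 7 or 8 or Pb replicate 2, 3, 4 or 5. In limma voom it was -0.23 (adjusted p = 0.419). By edgeR the call was also lost with the replicate block (-0.62, adjusted p = 0.0719), lower or higher replicate number as a factor (0.0621), the clock (0.0559) and the small-protein covariate (-1.11, 0.0732), and it was -1.01 with the marker covariates (0.00322). With those covariates Dusp1 was also called lower in Pb against Ta (-0.94, edgeR adjusted p = 0.014). The order of means was Co, DU, Ta, Pb, Al and W, with neighbours from 0.279 to 0.959 in adjusted p by edgeR.

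Within Co the animals differed. Replicates 7 and 8 had 6 of the 9 members over every Ta library and replicate 6 had 4, while replicate 5 had 3 members under every Ta library, and among its 4 values within the lowest 3 of the series was Nr4a1 at 10.99 CPM. Co replicates 6 to 8 had the last 3 animal numbers of the group. The small-protein balance of these 3 was 2.99, 2.90 and 2.95, the highest in Co, where the other 5 libraries had 2.13 to 2.75. Their shares of mitochondrially encoded counts, 26.5%, 24.3% and 23.2%, were also above the other 5 (at most 22.6%), and so were their heat shock means of 7.62, 7.71 and 7.49 log2 CPM (at most 7.45). The part of these measures in the values of Jun and Dusp1 was not tested within Co. Their endothelial marker means were 3.18, 3.09 and 4.27 log2 CPM, and that of replicate 5 was 3.47. Whether the order of collection played a part was not tested, since the labels give no times.

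**Figure D3:**
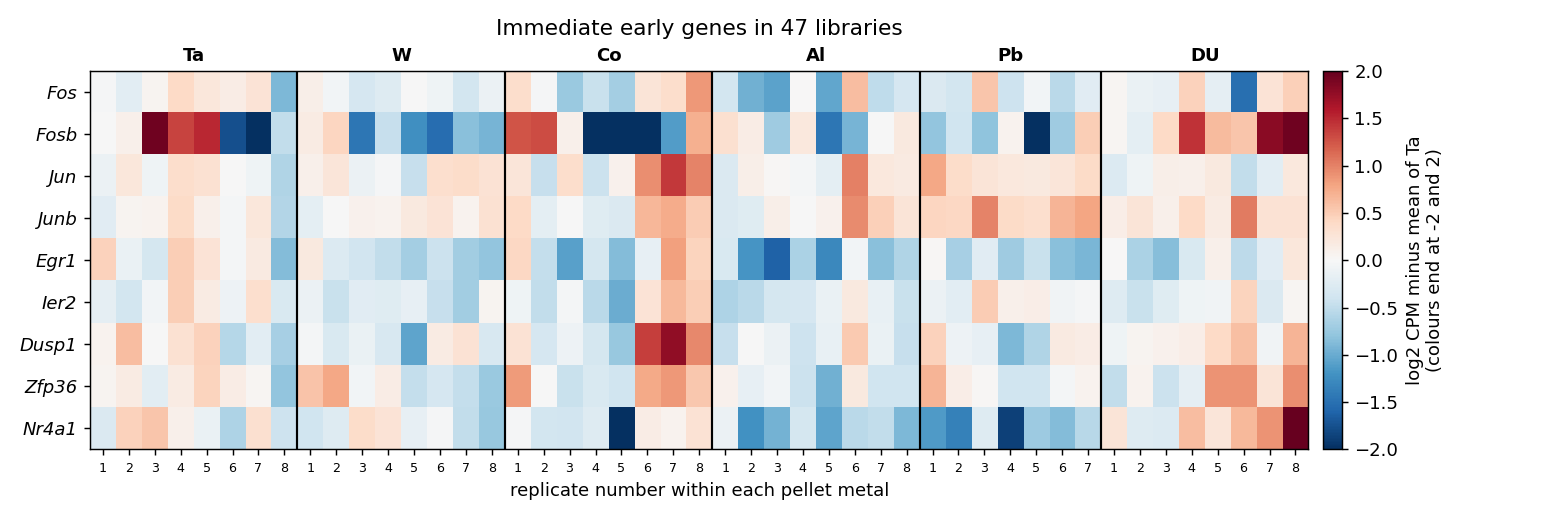
Each of the 9 members (rows) in each of the 47 libraries (columns, by pellet metal and replicate number), as log2 CPM minus the mean of Ta, red for higher and blue for lower. Co replicates 6 to 8 and Al replicate 6 show red across several AP-1 and feedback genes, and Nr4a1 is blue through Pb and red in most of DU.

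The other members did not pass against Ta in any metal without covariates. Fos, the AP-1 partner of the Jun proteins, had group medians of 26.32 CPM (Al) to 38.81 CPM (Co) and log2 fold changes of -0.39 to 0.04, with 7 of 8 Al libraries under the Ta median (edgeR adjusted p = 0.215). Ier2, a short early response nuclear protein, had medians of 35.78 CPM (Al) to 44.87 CPM (Pb) and log2 fold changes of -0.31 to 0.04. In other fits Ier2 passed as lower: with the small-protein covariate by -0.80 in Al (edgeR adjusted p = 0.0107) and -0.82 in Pb (0.0473), and with 3 surrogate variables by -0.49 in Al (0.0151). Zfp36, which binds AU-rich elements and speeds the decay of cytokine and early gene transcripts, had medians of 67.08 CPM (Al) to 99.5 CPM (Co) and log2 fold changes of -0.27 to 0.31. In Co, 4 of 8 Zfp36 values lay over every Ta library and in DU 3 of 8. By mean CPM the order was Co, Ta, DU, W, Pb, Al for Fos, Pb, Ta, Co, DU, W, Al for Ier2, and DU, Co, Pb, Ta, W, Al for Zfp36, and no neighbours in these orders passed (edgeR adjusted p from 0.422 to 0.991).

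Fosb, the close relative of Fos, was scarce: its median count was 24, its CPM ran from 0 in Co replicate 6 to 3.805 in DU replicate 8, and the SD within groups was 1.25 on the log2 scale. The group medians were 0.4744 CPM in W to 1.447 CPM in DU. DU exceeded W by 1.70 ± 0.63 (SE, edgeR adjusted p = 0.0482) and Pb by 1.58 ± 0.66 (0.0429), with 8 of 8 DU libraries over both medians. The first of these was lost without any 1 of 24 libraries (Ta replicate 1, W replicates 3 to 8, Co replicate 3, Al replicates 1 to 4, 7 and 8, Pb replicates 1 to 4 and 6, and DU replicates 4 to 8), with 0.0984 without DU replicate 8. The second was lost without any 1 of 8 (Pb replicates 1, 2, 3, 5 and 6, and DU replicates 4, 7 and 8), with 0.0875 without DU replicate 8. With the marker covariates the first was 0.54 (edgeR adjusted p = 0.787) and the second turned to -0.19 (0.933), and with 3 surrogate variables they were 0.36 (0.857) and -0.33 (0.772). Without the filter on low counts both were lost (0.0523 and 0.0518), the first also without DU replicates 5 and 6 (0.0685), and the second with the small-protein covariate (1.13, 0.344).

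Between animals of the same metal, most members rose and fell together. After group means were removed, 25 of 36 pairs had a positive correlation of log2 CPM over 47 libraries that passed (within-group permutation test with 100000 permutations, adjusted over 36 pairs), and 0 had a negative one. The median r was 0.44 and the range -0.01 to 0.79. Pairs of other genes were not tested in this way, so the share that would pass over all genes is not known. None of the 8 pairs with Fosb passed, and 25 of the 28 others did; the exceptions were Fos with Dusp1, Fos with Zfp36, and Jun with Nr4a1 (r = 0.18). The count rested largely on Co replicates 6, 7 and 8: without them 7 of 36 pairs passed and the median r was 0.32. Without DU replicates 5 and 6, 26 pairs passed.

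The closest pairs held without those Co libraries. Each of the 4 below had an adjusted permutation p of 9e-05 for r, from 1e-05, the smallest that 100000 permutations can give, and of at most 0.00045 for Spearman's rho. Jun and Dusp1 had r = 0.79 (rho 0.72), and 0.63 without the 3 Co libraries. Junb and Ier2 had r = 0.77 (rho 0.66), and 0.70 without them. Fos and Egr1 had r = 0.71 (rho 0.72), and 0.69 without them. Egr1 and Zfp36 had r = 0.65 (rho 0.60), and 0.62 without them. Leaving out the 2 libraries farthest from the median of the first gene gave 0.73, 0.74, 0.74 and 0.61 for these pairs. Of each pair with a promoter sequence for both genes, Junb and Ier2 each held the TGACG core, and Egr1 and Zfp36 each held a CArG box. The core was in 5 of 7 members, and Ier2 but not Junb held the full element. Whether these elements bear on the correlations was not tested.

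**Figure D4:**
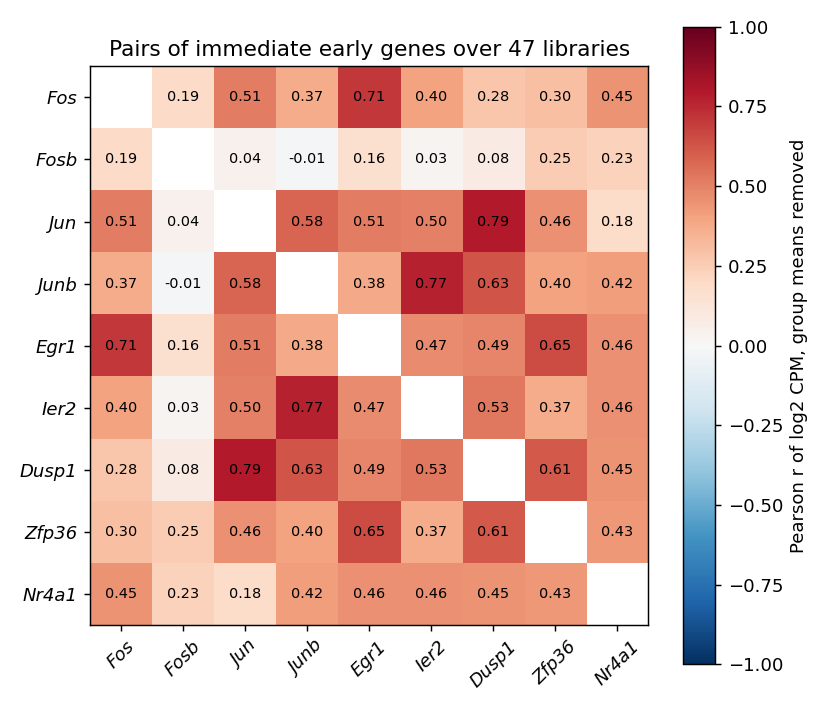
Pearson r of log2 CPM for each pair of the 9 members over 47 libraries with group means removed, in colour and in figures. The row of Fosb is near 0 throughout (at most 0.25), and the highest values are Jun with Dusp1 (0.79) and Junb with Ier2 (0.77).

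Within groups the members differed in spread. The SD of log2 CPM within groups was 0.32 for Junb, 0.33 for Ier2, 0.39 for Jun, 0.47 for Egr1, 0.48 for Fos and Zfp36, 0.52 for Dusp1, 0.56 for Nr4a1 and 1.25 for Fosb, beside a median of 0.38 over all tested genes. Of all tested genes, 42.7% had a smaller SD than Junb, 65.2% than Nr4a1 and 93.2% than the scarce Fosb.

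Measures that bear on handling and cell make-up were set against the members in the same way, over 47 libraries with group means removed and 54 relations adjusted together. No share over other genes was computed for these relations either. The small-protein balance rose with Junb (r = 0.52, adjusted permutation p = 0.0243; rho 0.47, 0.0563) and with Ier2 (r = 0.51, 0.0243; rho 0.53, 0.0329). Macrophage and dendritic markers rose with Zfp36 (r = 0.48, adjusted permutation p = 0.0338; rho 0.48, 0.0427), and inducible heat shock genes with Jun (r = 0.42, 0.0476; rho 0.34, 0.159). Endothelial markers fell with rising Jun (r = -0.53, adjusted permutation p = 0.0476; rho -0.44, 0.0704), although the libraries of W, Co and Al spread widely in this measure. The clock measure, day-phase minus night-phase genes, passed with 0 of 9 members (r from -0.21 to 0.16), and the share of mitochondrially encoded counts with 0 of 9 (r from -0.24 to 0.46). For r without the 2 farthest libraries the values were 0.55, 0.51, 0.43, 0.38 and -0.38 in the order given. Without DU replicates 5 and 6, 0 of 54 passed, the 5 relations then having r = 0.46, 0.47, 0.41, 0.43 and -0.53 with adjusted permutation p-values of 0.0535 to 0.0719. Without Co replicates 6 to 8, 2 of 54 passed, Zfp36 with macrophage markers (r = 0.59) and Nr4a1 with endothelial markers (r = 0.48). Over all 47 libraries, Nr4a1 with endothelial markers had r = 0.28 and did not pass (adjusted permutation p = 0.289, and 0.159 for a rho of 0.31).

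**Figure D5:**
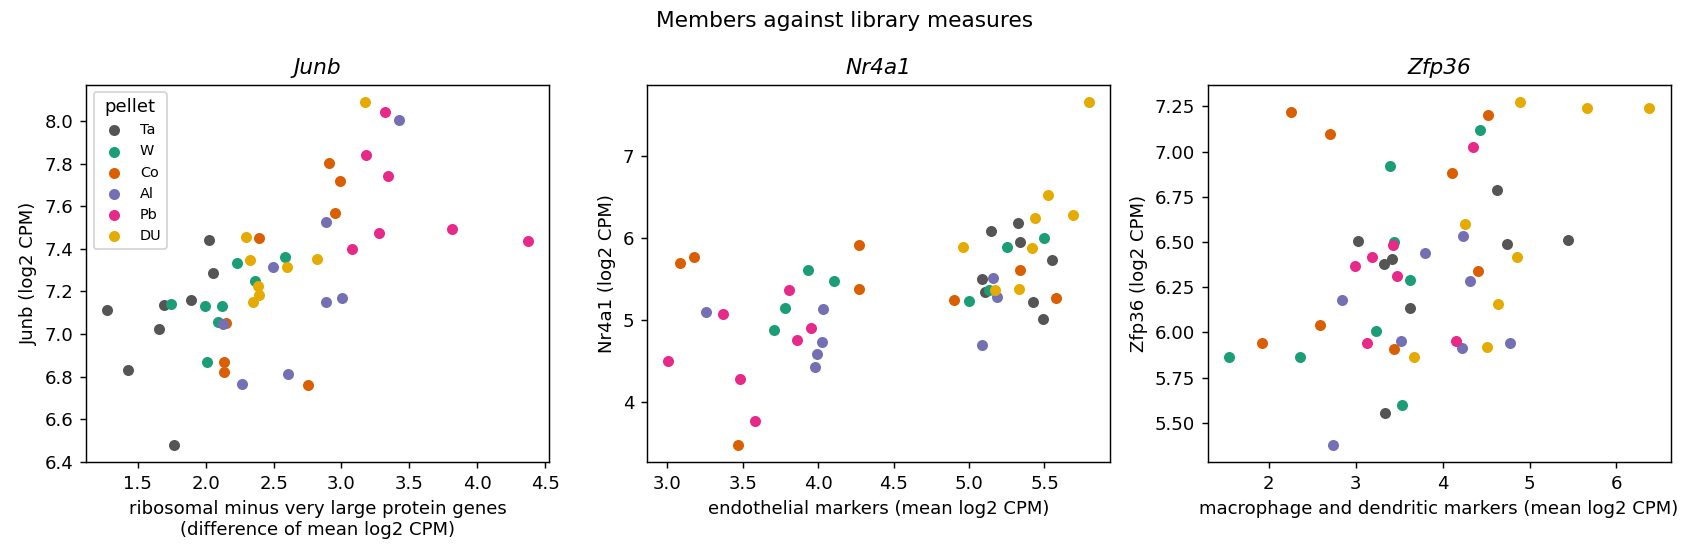
Log2 CPM of Junb, Nr4a1 and Zfp36 (vertical axes) against the small-protein balance, the mean of 12 endothelial markers and the mean of 14 macrophage and dendritic markers (horizontal axes, log2 CPM or its difference), 1 point per library coloured by metal. The Pb libraries lie at the right in the first panel and at the lower left in the second; group means are not removed here.

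Other early response genes, 54 of them from a list that holds no member, gave 7 higher and 14 lower calls against Ta in Pb (24.5% of all tested genes were higher and 29.2% lower), 9 and 1 in DU (7.89% and 7.39%), 0 and 7 in Al (12.8% and 12.4%), 1 and 5 in Co (13.6% and 12.2%), and 0 of either in W (1.42% and 0.366%), where 5 had an unadjusted p under 0.05. The median log2 fold change of the list was -0.34, 0.42, -0.17, -0.16 and -0.20 in these comparisons, in the same order. Zfp36l1 and Zfp36l2, relatives of Zfp36 in transcript decay, both fell in Co, Al and Pb. Zfp36l1 had 147 ± 26.6 CPM in Ta and 75.2 ± 10.3 CPM in Pb (SD, n = 8 and 7), with 7 of 7 libraries under every Ta library (-0.96 ± 0.13, edgeR adjusted p = 2.26e-08). Rcan1, a feedback inhibitor of calcineurin, fell by 1.07 on the log2 scale in Pb (SE 0.27, edgeR adjusted p = 0.000821), and Spry4, an inhibitor of receptor tyrosine kinase signalling, by 1.74 (SE 0.41, 0.000422). Without Ta replicates 4 and 6 the Co count was 0 higher and 1 lower, the Al count 1 higher and 0 lower, the Pb count 6 and 12, and the DU count 16 and 1. With the small-protein covariate 0 were higher and 8 lower in Pb, and with the marker covariates 1 and 8. In Al these counts were 0 and 3, and 0 and 5. In Co they were 0 and 0 (20 at an unadjusted p under 0.05), and 0 and 1. Calls among all genes fell as well. With the small-protein covariate they went from 8517 to 681 in Pb, 3996 to 293 in Al and 4089 to 198 in Co. With the marker covariates 4119, 1317 and 640 of all genes were called in these metals.

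In DU the 9 higher calls were lost without 2 libraries, and also with covariates. Cebpd, a transcription factor of the acute phase, rose by 1.95 ± 0.46 (SE, edgeR adjusted p = 0.00244), with a median of 40.3 CPM and 431 CPM in DU replicate 6. Nfkbia, the inhibitor of NF-kB, rose by 1.02 ± 0.27 (edgeR adjusted p = 0.00643), with a median of 51.4 CPM and 302 CPM in the same library. Klf2, a factor of endothelium under flow (0.61 ± 0.20, edgeR adjusted p = 0.0323), and Plk3, a stress kinase (0.83 ± 0.27, 0.0303), rose with DU replicate 8 highest. Without DU replicates 5 and 6, 0 of the 54 genes were called in DU against Ta (9 at an unadjusted p under 0.05). With all libraries kept, the small-protein covariate left 0 called (6 at an unadjusted p under 0.05). The marker covariates left 0 higher and 1 lower (9 at an unadjusted p under 0.05). Of all genes, 2424 were called in DU against Ta in the main fit and 1801 without DU replicates 5 and 6. The small-protein covariate left 457 of all genes and the marker covariates 1726. The neutrophil marker sum of DU replicate 6, mostly S100a8 and S100a9, and its low proximal tubule sum stand beside these values, and their part was not tested.

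Of 28 kinases and cofactors upstream of the members, 21 were lower and 1 higher in Pb against Ta (29.2% of all tested genes were lower and 24.5% higher). In Al 12 were lower and 1 higher (12.4% and 12.8% of all genes), in Co 8 and 1 (12.2% and 13.6%), in DU 8 and 1 (7.39% and 7.89%), and in W 0 of either (7 at an unadjusted p under 0.05). The gene that rose was Map2k2, which encodes the kinase MEK2, in 4 of 5 metals (0.89 ± 0.09 in Pb, edgeR adjusted p = 1.46e-10). In Pb, Atf2, a transcription factor of the CREB family, fell by 1.17 on the log2 scale (SE 0.13, edgeR adjusted p = 3.21e-10), Elk4, a partner of serum response factor, by 1.23 (SE 0.17, 6.54e-08) and Mrtfb, a coactivator of it, by 1.55 (SE 0.22, 6.39e-08). With the small-protein balance as covariate 1 was higher and 2 lower in Pb, 1 was lower in DU, and in Al and Co 0 were called by edgeR (6 and 5 at an unadjusted p under 0.05). Of all genes, that fit called 681 in Pb, 457 in DU, 293 in Al and 198 in Co. With the marker covariates 14 of the 28 were lower in Pb, 4 in Al, 4 in DU and 0 in Co. Without Ta replicates 4 and 6, 19 were lower in Pb, 6 in Al, 5 in DU and 3 in Co. The balance and the metal cannot be told apart.

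Lists of other stress responses were read beside the members. Of 11 inducible heat shock genes, 5 were higher and 2 lower against Ta in Pb, where 24.5% and 29.2% of all tested genes were. In Co 5 were higher (13.6% of all genes), in Al 3 (12.8%), in DU 3 (7.89%) and in W 1 (1.42%). Hspe1, the mitochondrial co-chaperonin, was the gene that rose in 5 of 5, and Hspa1b, the inducible HSP70, rose in DU (0.77 ± 0.26, edgeR adjusted p = 0.0375). With the small-protein covariate 1 of 11 passed in Al and 1 in Pb. In W 0 of 11 passed without Ta replicates 4 and 6 (7 at an unadjusted p under 0.05), so Hspe1 was not called there. That fit called 1 gene of all tested in W, so the loss is not particular to Hspe1. Of 16 targets of hypoxia inducible factor, 3 were higher and 8 lower in Pb, 3 higher in Al, 1 higher in DU, 1 lower in Co and 0 of either in W. Beside the shares of all genes just given, 3 of 16 in Pb and Al and 1 of 16 in DU lie near the background. In Co 12.2% of all genes were lower. The 8 of 16 lower in Pb lay above the 29.2% of all genes, and were 2 with the marker covariates and 0 with the small-protein covariate. Of 8 glucocorticoid induced genes, 1 was higher in W, Co, Al and Pb and 2 in DU, and 1 was lower in Al and Pb. Single calls among 8 genes lie near the background of these comparisons, except in W. The 2 of 8 higher in DU lay above 7.89%, and 0 of 8 passed there without DU replicates 5 and 6 (3 at an unadjusted p under 0.05). Ddit4, an inhibitor of mTOR signalling, rose in 5 of 5 (0.96 ± 0.17 in Pb, edgeR adjusted p = 7.86e-06), and Klf9 fell in Al and Pb. The W call of Ddit4 was lost without Ta replicates 4 and 6, where 0 of 8 passed (1 at an unadjusted p under 0.05). As for Hspe1, that fit called 1 gene of all tested in W. With the marker covariates 0 of 8 passed in W and in Al (1 and 2 at an unadjusted p under 0.05), where 0 and 1317 of all genes were called. With the small-protein covariate 0 of 8 passed in each of the 5 metals (0 to 4 at an unadjusted p under 0.05).

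Of all other tested genes, those most like the mean of the 9 members over 47 libraries, with group means removed, were Atf3 and Ccn1 (Pearson r = 0.63 each), Mical2, F3, Btg2 and Tmem39a (0.62), Taf3 (0.61), Scart1 and Fes (0.60) and Clic6 (0.59). Atf3, Ccn1 and Btg2 are themselves early response genes of the list of 54. The points share library and scaling, and the ranking is a description. Each member's own r with the mean of the other 8 was 0.54 to 0.67, except for Fosb (0.18), and was highest for Egr1.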

How the data were processed

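Per the labels, rat kidney RNA was extracted in TRIzol and DNase treated, its quality was read by Bioanalyzer, and libraries were prepared by a company. The deposited table holds unscaled counts for each gene; per the submitters' processing notes the authors used STAR 2.7.2a, featureCounts of Subread 1.6.4 and the mRatBN7.2 genome. The annotation, the strand setting and the handling of multi-mapping reads are not given in the sources used here, so reads of overlapping or antisense genes cannot be told apart. Of the table, 29 lines without a gene name were dropped, remains of coordinate text of very long genes.

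All 47 libraries entered 1 fit in edgeR 4.0.16 (R 4.3.3): genes kept by filterByExpr with a minimum count of 10 (15868 tested), TMM scaling, quasi-likelihood F tests, two-sided, Benjamini-Hochberg adjustment within each comparison, threshold 0.05. CPM are counts scaled to the TMM-adjusted total, and log2 CPM for correlations and markers used a prior count of 2. No gene lengths were used, so levels are compared within a gene, not between genes. The p-values measure the spread between animals as the labels number them, with 21604755 to 35775818 counts per library behind each value, where depth sets counting error only. Scripts were tested on simulated data.

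Correlations used 100000 permutations within groups. Alternatives were DESeq2 1.42.0, limma 3.58.1 voom with quality weights, upper quartile and RLE scaling, a strict filter (1 CPM in 7 libraries) and none, the replicate number as a block, covariates (endothelial with macrophage markers, small-protein balance, clock), 3 surrogate variables of sva 3.50.0, a threshold of 0.1, fits of the compared groups alone and fits without each library. Some sets of libraries were left out, and pairs of metals compared, after seeing the data. Replicate numbers were no pairing: residuals of same-numbered libraries (115 pairs) correlated with a median of 0.0116 (-0.353 to 0.36), and those of other pairs with -0.000744. No copies were found in 161 within-group pairs (lowest chi-square per degree of freedom 15.8).

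The members and the lists were chosen with earlier results of these data known. Named were all 9 members, from each list at most 10 genes past the test with the smallest p among the 6 metals and a mean of at least 1 CPM, and the 10 genes most correlated with the members' mean. Promoters, from RefSeq's GRCr8 table, gave sequences only. A result for 1 gene of the upstream list is not reported here.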

Additional observations from a re-analysis of the deposited data

Results flagged for a closer look

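In each of 54 gene and group pairs, the library farthest out was examined by its gap to the nearest other library over the range of the group. With independent, normally distributed values about 1 in 20 groups would be picked out, or 2.7 of 54, and 11 were. The values were CPM without a log scale and the members correlate, so 2.7 is only a rough guide. Each is given with the nearest other value of its group.

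In Al, replicate 6 had 287.6 CPM of Jun (next 164.8) and 91.49 CPM of Dusp1 (next 63.34). In DU, replicate 6 had 272.5 CPM of Junb (next 175.4) and 62.11 CPM of Ier2 (next 46.77), and replicate 8 had 202.6 CPM of Nr4a1 (next 92.28). In Pb, replicate 1 had 244.4 CPM of Jun (next 187.2) and 130.01 CPM of Zfp36 (next 89.32), and replicate 3 had 52.52 CPM of Fos (next 34.23) and 64.59 CPM of Ier2 (next 49.83). In W, replicate 1 had 94.49 CPM of Egr1 (next 68.38). Co replicate 5 was low, with 10.99 CPM of Nr4a1 (next 37.8).

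Of these 11 values 10 were high and 1 was low, on a CPM scale that stretches high values more than low ones. The pairs Jun with Dusp1 and Junb with Ier2, which were the most correlated over all libraries, were picked out together in Al replicate 6 and in DU replicate 6. Both libraries also entered those correlations, so this is not a separate observation. DU replicate 6 also held the lowest Fos value of all 47 libraries (12.4 CPM), which was not picked out. In that library 3 members were among the 3 highest of the series and 2 among the 3 lowest. The 3 high Co libraries were not picked out for Jun or Dusp1, since a gap to a single nearest library cannot show 3 that stand together.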

How the results depend on the processing

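Counts of members called against Ta (3 in Pb, 2 in Al, 1 in Co, 0 in W and DU), and among 6 and 5 metals (4 and 2), moved as follows. The single call in Co became 0 in limma voom, without the filter, with the replicate block, with lower or higher replicate number as a factor, with the clock, marker or small-protein covariates, with 3 surrogate variables and in the fit of the compared groups alone, and 2 at a threshold of 0.1. The count in Al became 1 in limma voom and with the clock, marker or small-protein covariates; with the last both Egr1 and Nr4a1 were lost and Ier2 was the 1 called (-0.80), and with 3 surrogate variables the 2 were Egr1 and Ier2. The count in Pb became 1 with the small-protein balance, where Junb, Egr1 and Nr4a1 were all lost and Ier2 was called lower (-0.82), and 0 with 3 surrogate variables, and that in DU 1 in limma voom and at a threshold of 0.1. Among 6 metals it became 2 with the marker covariates. Calls over all genes among 6 metals fell as well, from 9260 to 3055 with the marker covariates. They were 4625 with the small-protein covariate and 5493 with 3 surrogate variables. Among 5 metals it became 4 in DESeq2, with the replicate block and with lower or higher number as a factor, and 6 at a threshold of 0.1. A like count need not be the same members: with the marker covariates the 2 in Pb were Egr1 and Dusp1, and limma voom added Jun in Pb. Without any 1 library the counts were 2 to 3 in Pb, 1 to 2 in Al, 0 to 2 in Co, 0 to 0 in W, 0 to 1 in DU, 3 to 5 among 6 metals and 1 to 5 among 5. The replicate block, where numbers do not pair the libraries, moved only the counts named above by over 1.5 times.

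Of the relations between members 25 became 7 without Co replicates 6, 7 and 8. Of those with the library measures 5 became 13 when pooled over groups, 0 without DU replicates 5 and 6 and 2 without the 3 Co libraries.

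Log2 fold changes that turned in sign, against Ta unless named, were mostly of members not called; Junb in Pb and in Pb against W, and Fosb in DU against Pb, were called. With the small-protein balance they were Fos -0.11 in Co, Jun -0.12 in W, -0.37 in Al and -0.54 in Pb, Junb -0.29 in Pb, -0.33 in Al, -0.21 in Co, -0.13 in W, -0.09 in DU and -0.16 in Pb against W, Ier2 -0.82 in Pb, Dusp1 -0.29 in DU and Zfp36 -0.53 in Pb. With the marker covariates they were Fos -0.03 in Co, Fosb 0.19 in Pb and -0.19 in DU against Pb, Jun -0.11 in W, -0.32 in Al and -0.42 in Pb, Junb -0.11 in Al, Ier2 -0.22 in Pb, Zfp36 0.11 in W, -0.07 in Pb and -0.0049 in DU, and Nr4a1 0.00094 in Co. With 3 surrogate variables they were Fosb 0.74 in Pb, 0.38 in Al, 0.67 in Co, 0.05 in W and -0.33 in DU against Pb, Jun -0.02 in W, -0.12 in Al and -0.10 in Pb, Junb -0.01 in Co and -0.06 in Al, Ier2 -0.27 in Pb, and Zfp36 0.12 in W, -0.07 in Pb and -0.02 in DU. In limma voom Fos was -0.08 in Co and 0.22 in DU, Jun 0.02 in DU, Zfp36 0.05 in W and Nr4a1 0.04 in W. Zfp36 in Pb was -0.01 with the clock covariate and -0.03 with the replicate block. With the strict filter Ier2 was 0.0049 in Co and Zfp36 0.0022 in W. Without DU replicates 5 and 6 Fos was 0.17 in DU, Ier2 0.0042 in Co and Zfp36 0.0039 in W. Without Ta replicates 4 and 6 Fos was 0.08 and Jun 0.02 in DU, Egr1 0.02 and Ier2 0.07 in Co, and Zfp36 0.04 in W.

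Without any 1 library the values that turned ranged from -0.10 to 0.14 for Fos in Co, -0.11 to 0.12 for Fos in DU, -0.01 to 0.23 for Jun in Al, -0.10 to 0.02 for Jun in DU, -0.26 to 0.03 for Egr1 in Co, -0.15 to 0.08 for Ier2 in Co, -0.05 to 0.13 for Ier2 in Pb, -0.17 to 0.08 for Zfp36 in W and -0.12 to 0.10 for Zfp36 in Pb. The cause of these changes was not tested. Depth limits Fosb, whose median count was 24.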
